A study of Mus musculus with 12 samples.

Results

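Isolated accessible sites are described here: peaks of open chromatin whose centre lies more than 100 kb from the centre of both the previous and the next peak on the same chromosome. They were selected on these distances from the positions of the master peak-list, a single list for all samples, and 975 of the 82403 autosomal peaks (1.18%) met the rule, out of 84243 peaks in all. The list comes from ATAC-seq, in which a transposase inserts sequencing adapters into exposed DNA. The cells were wild-type C57BL/6 mouse blood cells, sorted by surface markers from animals aged 8 to 12 weeks: hematopoietic stem cells (HSC), megakaryocyte progenitors (MkP), erythroid progenitors (EP), granulocyte/macrophages (GM) and B cells of the bone marrow, and T cells of the thymus, with 2 replicates each and 12 samples in all. For a peak the list gives its position, its annotation class and the distance in bp to the nearest transcription start site (TSS), and it has 0 columns of values per sample. Which of the 6 cell types was open at an isolated peak was therefore not analysed here, the depth behind a peak is unknown, and no value below has an error between replicates. Shares are given with 95% Wilson intervals, which treat peaks as independent and cover counting error only. No test was made, because peaks of one list are not replicates. For the same reason the labelled cell types could not be checked against their markers.

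Open sites usually come in groups, because active genes gather promoters and enhancers around them. The long stretches between such groups are often AT-rich and poor in genes, and many of the genes they do hold are large genes of the nervous system that blood cells do not use. Sites that can be open in such surroundings include promoters rich in CpG, which stay free of DNA methylation in many tissues, binding sites of CTCF, a zinc finger protein that anchors chromatin loops and domain borders, and long terminal repeats (LTRs) of endogenous retroviruses, which carry promoters of their own.

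The sequences of the most isolated peaks with a CTCF pattern are shown first, because this pattern set isolated and other peaks farthest apart among the patterns with matches in over 5% of peaks. The pattern was CCANNAGNNGGC, searched on both strands of the whole peak. Each line has the 121 bases around the peak centre on the plus strand of mm10, 5′ to 3′, with the match in capitals, and is named by the gene of the nearest promoter.
A330008L17Rik, chr8:100851169-100851289: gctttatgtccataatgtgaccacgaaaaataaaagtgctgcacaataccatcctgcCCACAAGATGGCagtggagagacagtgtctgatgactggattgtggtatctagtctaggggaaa
Gm2516, chr8:50293714-50293834: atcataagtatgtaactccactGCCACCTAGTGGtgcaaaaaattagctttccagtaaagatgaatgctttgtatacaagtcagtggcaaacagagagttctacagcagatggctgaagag
Tecrl, chr5:83440404-83440524: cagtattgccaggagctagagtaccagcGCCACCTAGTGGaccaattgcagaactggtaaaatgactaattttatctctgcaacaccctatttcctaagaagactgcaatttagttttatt
Iqcm, chr8:76067832-76067952: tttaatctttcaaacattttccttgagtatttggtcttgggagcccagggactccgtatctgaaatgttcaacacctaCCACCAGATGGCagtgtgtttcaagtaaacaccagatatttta
Bche, chr3:73731838-73731958: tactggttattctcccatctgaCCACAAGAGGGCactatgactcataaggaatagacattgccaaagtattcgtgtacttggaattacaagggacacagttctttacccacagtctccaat
Gm28881, chr10:64750865-64750985: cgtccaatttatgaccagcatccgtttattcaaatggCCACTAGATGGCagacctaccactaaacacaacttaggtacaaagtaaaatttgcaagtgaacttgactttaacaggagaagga
The match lay 2.5 to 32.5 bp from the peak centre in these 6 peaks. The first of them was 1816139 bp from its nearest neighbour and 1434555 bp from the nearest TSS, that of the non-coding RNA A330008L17Rik. Only the last was annotated to a gene, in intron 13 of 17 of a coding transcript.

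Promoters are shown by 4 peaks, those of protein-coding genes with the largest distance to another peak. Each line has the 201 bases around the peak centre on the plus strand, with every CG in capitals, the dinucleotide that is scarce in most of the mouse genome and dense in CpG islands.
Zik1, chr7:10495319-10495519: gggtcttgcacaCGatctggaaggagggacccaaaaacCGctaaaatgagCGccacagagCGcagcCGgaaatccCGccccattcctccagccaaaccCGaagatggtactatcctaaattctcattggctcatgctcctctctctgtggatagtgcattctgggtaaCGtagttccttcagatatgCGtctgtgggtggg
Elavl2, chr4:91376434-91376634: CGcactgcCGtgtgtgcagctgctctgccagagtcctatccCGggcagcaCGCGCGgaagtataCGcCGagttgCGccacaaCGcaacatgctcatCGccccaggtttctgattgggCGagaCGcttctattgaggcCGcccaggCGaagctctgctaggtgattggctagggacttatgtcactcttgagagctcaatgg
Mmp16, chr4:17853129-17853329: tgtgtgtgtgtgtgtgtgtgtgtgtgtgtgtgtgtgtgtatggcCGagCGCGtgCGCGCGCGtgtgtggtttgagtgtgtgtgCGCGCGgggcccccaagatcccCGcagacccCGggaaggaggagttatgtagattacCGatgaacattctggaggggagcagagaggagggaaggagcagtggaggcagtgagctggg
Pabpc4l, chr3:46447589-46447789: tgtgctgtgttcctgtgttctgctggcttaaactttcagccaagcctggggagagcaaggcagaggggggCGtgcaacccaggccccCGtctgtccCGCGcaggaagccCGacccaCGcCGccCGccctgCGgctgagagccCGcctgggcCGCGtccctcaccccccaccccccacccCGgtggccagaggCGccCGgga
Zik1 encodes a zinc finger protein, Elavl2 a neuronal RNA-binding protein, Mmp16 a membrane-bound matrix metalloproteinase and Pabpc4l a relative of poly(A)-binding proteins. The GC content of the 4 whole peaks ran from 53.3 to 64.5%, while the 100 kb on either side of them had 36.5 to 39.8% GC.

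The distances that chose the members are given as a description. The distance to the nearest peak ran from 100015 bp to 2731491 bp with a median of 162051 bp, against a median of 4548 bp over the 82365 autosomal peaks that have a neighbour on each side. It exceeded 200 kb in 344 members, 500 kb in 63 and 1000 kb in 19. The threshold cut through a continuous range: the 3 members just inside it lay 100015, 100060 and 100060 bp from their neighbour, and the 3 peaks just outside lay 99755, 99948 and 99965 bp away. All 3 members just inside were intergenic, near Cxxc4, Sema3d and Sema3a. The last 2 of these, near genes of secreted axon guidance factors, were each other's nearest peak. The share of isolated peaks ran from 0.705% of the peaks of chromosome 19 to 1.95% of those of chromosome 14, and their number from 18 on chromosome 19 to 79 on chromosome 3.

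The most isolated peak of all lay on chromosome 12 from 61994263 to 61994761, 471345 bp from the TSS of Lrfn5, a synaptic adhesion protein, with no other peak for 2731491 bp on one side and 2835350 bp on the other. It was annotated to IAPLTR3-int, a part of an intracisternal A particle (IAP), a mouse endogenous retrovirus. The 10 most isolated peaks included 3 of the promoters printed above, those of Zik1, Elavl2 and Mmp16. Another was centred 769 bp upstream of the TSS of Nova1, a neuronal splicing factor. Yet another lay 1122 bp from a TSS inside Lrrc4c, which encodes a ligand of netrin-G and spans 1313504 bp. The remaining 5 were intergenic, and of these 2 held IAP sequence and 2 the CTCF pattern.

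To account for every member once, the 975 peaks were divided in order. Promoter peaks, centred within 500 bp of a TSS, numbered 121 (12.4%, interval 10.5 to 14.6%). Another 178 (18.3%) held the CTCF pattern outside promoters. A repeat without the CTCF pattern was annotated at 163 (16.7%). Of the rest, 160 (16.4%) lay in a protein-coding gene of RefSeq and 353 (36.2%) lay outside such genes, with none of these features. Some of the latter lay in introns of non-coding genes. The largest class of isolated peaks therefore had no promoter, CTCF pattern or repeat. Among the other 81428 autosomal peaks the same order gave 15.5, 10.1, 13.0, 34.8 and 26.6%.

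The annotation of the authors put 602 isolated peaks (61.7%, 58.7 to 64.7%) in intergenic sequence, against 37.3% of the other autosomal peaks (37.0 to 37.6%). Introns held 245 (25.1%, 22.5 to 27.9%) against 41.8%. The intergenic share was higher among isolated peaks on 19 of 19 autosomes. Peaks more than 100 kb from any TSS made up 56.0% of isolated peaks and 10.4% of the others. No protein-coding TSS of RefSeq lay within 100 kb of 630 isolated peaks (64.6%, 61.6 to 67.6%), against 15.6% of the others. Peak spacing and gene spacing are tied, since promoters are themselves peaks, so these values are close to the rule and are given as a description. Promoters were not missing, however: their share was 12.4% against 15.5% (15.2 to 15.7%), lower on 15 of 19 autosomes and higher on 4.

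**Figure D1:**
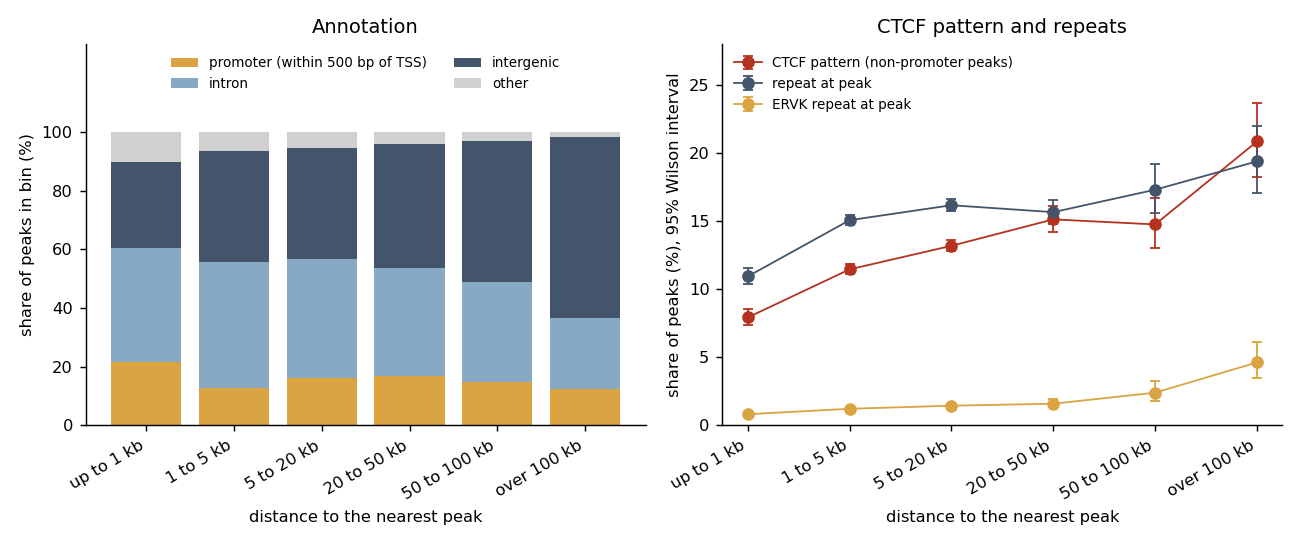
Left, the annotation of autosomal peaks (share of peaks, %) by distance to the nearest peak, as stacked bars; right, the share with the CTCF pattern among non-promoter peaks, with a repeat and with an ERVK repeat, as points with 95% Wilson intervals. The last bin, over 100 kb, holds the 975 isolated peaks; intergenic peaks rise from 29.3% in the first bin to 61.7% in it, and the CTCF pattern from 7.92 to 20.8%.

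The plot by distance to the nearest peak counts promoter peaks first, so its intron class leaves out the intronic peaks within 500 bp of a TSS (234 of the 245 isolated intronic peaks remain). The promoter share varied little beyond the first bin, from 12.4 to 16.7%, while the intron share decreased from 43.0% at 1 to 5 kb to 24.0% over 100 kb. Intergenic peaks were 47.9% at 50 to 100 kb and 61.7% over 100 kb. The intervals of these last shares were apart (45.5 to 50.2% and 58.7 to 64.7%).

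Isolated peaks were poorer in GC than the others. The median GC content was 44.7% (quartiles 40.1 and 50.3%) against 48.9% (44.5 and 54.5%), and it was lower on each of the 19 autosomes. The 200 kb around them, 100 kb on each side, had a median of 39.3% GC against 44.6%, and the highest median of any autosome for isolated peaks, 41.2%, was below the lowest for the others, 43.1%. The reference soft-masks as repeats a median of 35.2% of these surroundings, against 28.1%. Away from promoters the median GC was 43.5% in 854 isolated peaks and 47.7% in 68822 others. Among promoter peaks it was 61.7% in 121 isolated peaks (quartiles 54.1 and 68.5%) and 63.5% in 12606 others (57.7 and 68.7%).

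**Figure D2:**
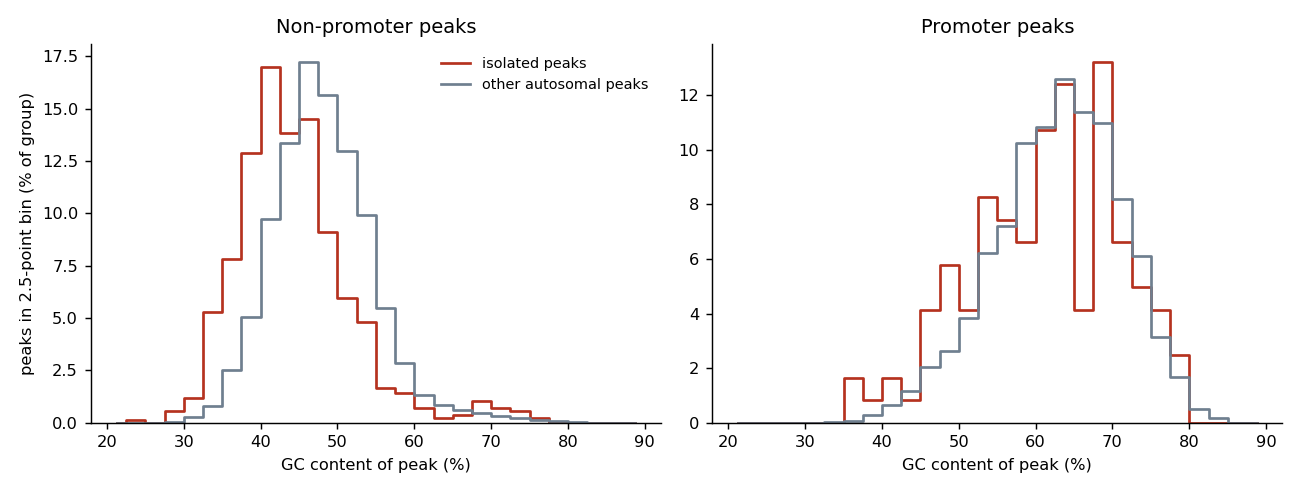
GC content of non-promoter (left) and promoter (right) peaks, as the share of each group (%) in bins of 2.5 points; red, isolated peaks, and grey, other autosomal peaks. Away from promoters the isolated peaks sit lower, with medians of 43.5 and 47.7%, and at promoters the groups overlap for most of their range, with medians of 61.7 and 63.5%.

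The 121 isolated promoters comprised 115 of protein-coding genes, 4 of non-coding RNAs and 2 of pseudogenes. The ratio of observed to expected CpG had a median of 0.739 (quartiles 0.546 and 0.853) against 0.781 in other promoter peaks (0.611 and 0.899). A GC content of at least 50% together with a ratio of at least 0.6 was found in 80 of the 121 (66.1%, 57.3 to 73.9%) and in 75.3% of the others (74.5 to 76.1%). So around 2 of every 3 isolated promoters had the composition of a CpG island, with the interval just below that of other promoters. Outside promoters 4.57% of isolated peaks (3.36 to 6.18%) had that composition, against 3.87% of the others (3.73 to 4.02%), and the intervals overlapped.

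The genes at isolated promoters were long. Their median length was 154867 bp over 114 genes (quartiles 38730 and 406664 bp), against 24826 bp over 10761 genes with another promoter peak (10873 and 57306 bp). A long gene keeps other starts away, so length too is linked to the rule. After the 4 promoters printed above, the most isolated were those of Nkain2, a partner of the sodium pump, with no peak within 1061126 bp, of Lsamp, a neuronal adhesion protein of the limbic system, with none within 754669 bp, and of Khdrbs2, a splicing regulator, with none within 556193 bp. Pcdh9 followed at 551964 bp, Fbxw17 at 531802 bp, Grik2 at 508979 bp, Gm14305 at 498280 bp and Pcdh17 at 490890 bp. Pcdh9 and Pcdh17 are protocadherins, adhesion proteins of the nervous system, Grik2 is a kainate receptor subunit and Fbxw17 is an F-box protein. All but Zik1, Pabpc4l, Fbxw17 and Gm14305 among the 12 genes were over 90 kb long, with Lsamp at 2197426 bp and Nkain2 at 1207865 bp. Gm14305 had the lowest GC content of the 12 peaks, 49.1%, and the lowest CpG ratio, 0.237, and Nkain2 the highest GC content, 76.0%.

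Genes of the nervous system were frequent among the nearest genes. In a list of 87 genes of neuronal adhesion and guidance, 68 were nearest to any autosomal peak and 42 of these to an isolated one. They accounted for 68 isolated peaks (6.97%, 5.54 to 8.75%), 12 of them promoters, against 0.371% of the other peaks (0.331 to 0.415%). Of all isolated promoters these 12 were 9.92%, and the corresponding share of other promoter peaks was 0.214%. The gene lists here and below were chosen with earlier results of these data known. Some genes of this list, such as Lsamp and Lrrc4c, are very long, and length is linked to the rule, so these shares are a description. Lrfn5, at the most isolated peak, belongs here. A pair of peaks near Lrrc4c lay 1635719 and 1359912 bp from another peak, the latter on an ORR1D1 repeat. Unc5d, a netrin receptor, held an intronic peak 1259854 bp from the next. A peak of Adgrl3, an adhesion receptor of the latrophilin family, lay 971705 bp from another peak and 1285501 bp upstream of the TSS.

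Ion channels and neurotransmitter receptors, 58 genes, were nearest to 23 isolated peaks (2.36%, 1.58 to 3.52%), against 0.156% of the others (0.131 to 0.186%). The promoter peak of Grik2 lay 508979 bp from another peak. A peak nearest to Htr1a, a serotonin receptor, lay 472554 bp from another peak and 722915 bp from the TSS. Kcnip4, a potassium channel partner, had a pair of peaks that were 260522 bp apart and each other's nearest, 1 of them with the CTCF pattern. Gria4, an AMPA receptor subunit, had a peak 554 bp from the TSS and 258740 bp from the next.

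Developmental transcription factors, 104 genes, were nearest to 15 isolated peaks (1.54%, 0.935 to 2.52%), against 0.570% of the others (0.520 to 0.624%), and 5 of the 15 were promoters. Sox2, a factor of neural and pluripotent cells, had a peak 105 bp from its TSS with none other within 453536 bp. Promoter peaks were also found at Rorb, an orphan nuclear receptor, 276295 bp from the next peak, at Foxp2, a forkhead factor of the brain, 262314 bp from the next, and at Eya4, a coactivator, 233147 bp from the next. A second Foxp2 peak lay 262314 bp from the first, in intron 3 on an Lx8b repeat. Nr2f1, an orphan nuclear receptor, was the nearest gene to an intergenic peak 284611 bp from its TSS.

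Blood cell regulators stood at the other end. Peaks that lie close together fail the rule, so the shares of genes with many peaks are linked to it and are a description. Of 61 genes, 60 were nearest to an autosomal peak and 1 to an isolated one, so the list held 1 isolated peak (0.103%, 0.0181 to 0.579%) and 1.05% of the other peaks (0.981 to 1.12%). That peak was nearest to Meis1, a homeobox factor of stem cells, but 386451 bp from its TSS. No blood regulator had an isolated promoter, while 65 other promoter peaks belonged to the list. Over all genes 121 promoter peaks were isolated and 12606 were not, so few or none would be expected among 65 in any list.

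Chemosensory receptors, which smell, taste and pheromone cells use, were nearest to 33 isolated peaks (3.38%, 2.42 to 4.71%) for 33 genes, against 0.297% of the others (0.262 to 0.337%). Only 1 of the 33 was a promoter peak, and 10 held the CTCF pattern. The most isolated lay 10744 bp from Olfr294, on an MTEa-int repeat, with no peak within 486449 bp. The next was 7343 bp from the bitter taste receptor gene Tas2r120, with 31.5% GC and a CTCF pattern. Others lay near Vmn2r-ps11, Olfr1066, Vmn2r97 and Vmn1r26, at 345763 to 242164 bp from another peak, of which the peaks at Olfr1066 and Vmn2r97 were on IAP repeats.

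Other TSSs lay near some of the members. A protein-coding TSS lay between 500 bp and 100 kb from 276 isolated peaks, and these TSSs belonged to 588 genes. By the rule itself nearly all of them lack a peak, and whether the genes are expressed was not measured. Of the 588 genes, 192 (32.7%) were chemosensory receptors, which were 7.32% of the 20558 autosomal protein-coding genes. Another 35 (5.95%) had symbols beginning with Krt, the keratins and keratin-associated proteins of skin and hair, against 0.545% of all. Genes of these families lie in clusters, so the 588 are not independent. The 20558 genes include those with a promoter peak, which the rule nearly keeps out of the 588, so these shares are linked to it. The most such TSSs for 1 isolated peak was 20.

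Most genes had a single member. The 975 peaks were assigned to 807 genes, 669 with 1 isolated peak and 23 with 3 or more. Lsamp had 6, which were all the autosomal peaks assigned to it. Rprm, a cell cycle inhibitor, had 4, also all of its peaks. Anks1b, a synaptic scaffold protein, had 4 of 12, B3galt2, a galactosyltransferase, 4 of 13 and Pla2g4a, a cytosolic phospholipase A2, 4 of 21. The peaks of B3galt2 and Pla2g4a were 320953 to 1113542 bp from the TSS, with 0 promoters, while Lsamp, Rprm and Anks1b had 1 isolated promoter each. A further 18 genes had 3, the first in alphabetical order being 4930529K09Rik, 4930590L20Rik, 9530026P05Rik, Adcyap1, a neuropeptide gene, and Adgrl3.

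Inside genes, the hosts were very large. Of the 854 non-promoter members, 250 (29.3%, 26.3 to 32.4%) lay in the body of a protein-coding gene, against 54.3% of the other non-promoter peaks. The median length of the host was 474919 bp (quartiles 224722 and 1007304 bp), against 91909 bp for the others (38377 and 195182 bp). A long gene has more room for a peak far from others, so host length is linked to the rule. It is a description, as are the counts of peaks per host below. Non-promoter members were most numerous in Lsamp, with 5 among the 9 peaks in its body, and 8 genes had 3 each. Among these 8, named after their values were seen, Cdh13, an anchored cadherin of 1184913 bp, Dpp10, a partner of potassium channels of 1513678 bp, and Pcdh15, a protocadherin of hair cells of 1553555 bp, held no other peak.

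Isolated peaks that followed one another were grouped into runs. A peak next to a member already has a gap of over 100 kb on that side. Runs are thus linked to the rule and are a description. Consecutive members made 636 runs, of which 413 were single peaks and 74 held 3 or more, with 264 of the 975 members. The longest run, 7 peaks on chromosome 7 from 86627138 to 87938680, reached from Olfr294 over Vmn2r79, Nox4, Tyr and Grm5 to Ctsc. Nox4 is an oxidase, Tyr the pigment enzyme tyrosinase, Grm5 a glutamate receptor and Ctsc the protease cathepsin C. It held 1 promoter, 1 CTCF pattern, 3 repeats and 9 coding TSSs. The next run, 6 peaks from 39984278 to 41914881 on chromosome 16, was assigned to Lsamp throughout and held 1 promoter and 2 CTCF patterns. Another 6 lay on chromosome 1 from 31380232 to 33282330, around Khdrbs2 and Prim2, a primase subunit, with 0 CTCF patterns. A further 6 on chromosome 12 from 37450707 to 38492369, around Agmo, an ether lipid enzyme, and Dgkb, a diacylglycerol kinase, had 3. The fifth, 5 peaks over 3023207 bp of chromosome 1 from 146231415, was assigned to Brinp3, a neural gene, and Pla2g4a, and had 1 coding TSS within it.

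The CTCF pattern was found in 185 isolated peaks (19.0%, 16.6 to 21.6%), in 11.0% of the other peaks (10.7 to 11.2%) and in 11.1% of all autosomal peaks, all windows being 499 bp. Away from promoters the shares were 20.8% (18.3 to 23.7%) and 12.0% (11.8 to 12.3%). The share was higher in isolated peaks on 18 of 19 autosomes, and the exception was chromosome 17, with 11.1 against 12.5%. At promoters the shares were 5.79% (2.83 to 11.5%) and 5.28%, within the interval of the former.

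The matches were central. The match closest to the centre lay a median of 23.5 bp from it in isolated peaks and 24.5 bp in the others, and 83.2 and 72.5% of the matches were within 50 bp. The same letters written backwards, CGGNNGANNACC, were in 2 isolated peaks and in 0.500% of the others, where their median distance from the centre was 128.5 bp. A match says only that these letters are there, and binding of CTCF was not measured. The stricter pattern, of the same length with more of the letters given, was in 24.9% of the 185 peaks (19.2 to 31.6%). It was in 23.8% of the other peaks with a match, within that interval.

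**Figure D3:**
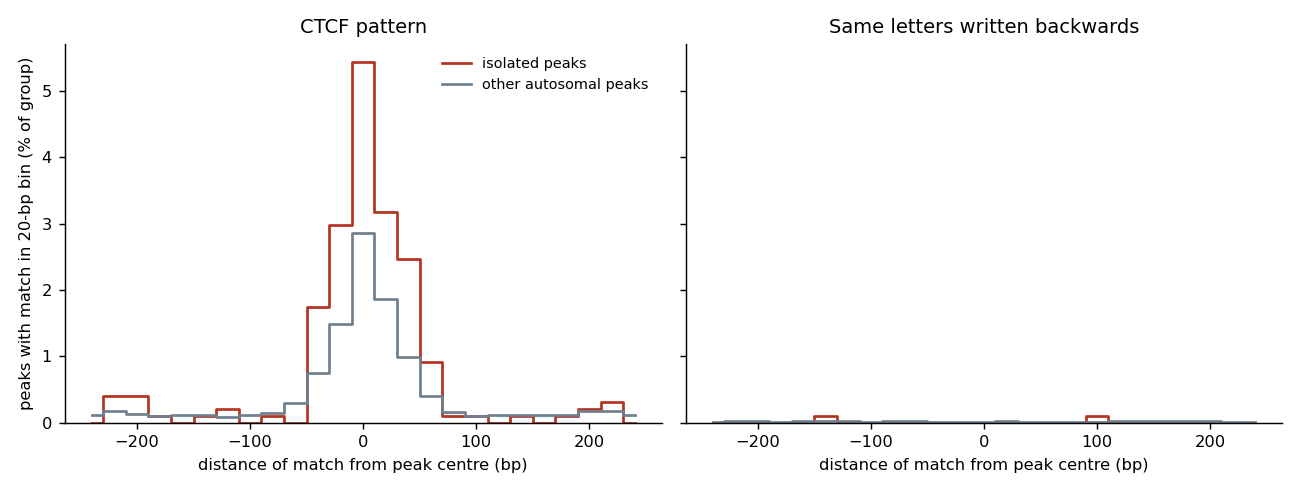
Position of the CTCF pattern (left) and of the same letters backwards (right) relative to the peak centre, as the share of each group (%) with its most central match in bins of 20 bp; red, isolated peaks, and grey, other autosomal peaks. In both groups the pattern piles up at the centre, with medians of 23.5 and 24.5 bp from it, higher in isolated peaks; the backwards letters are rare and lie flat.

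The difference was compared within narrower sets of peaks, whose surroundings were not matched. Among intergenic peaks more than 100 kb from a TSS, 16.9% of 414 isolated peaks (13.6 to 20.8%) and 8.88% of 5032 others (8.13 to 9.70%) held the pattern. Of this far intergenic set, isolated peaks were 7.60%. Surroundings still differed within the set, where the median GC within 100 kb was 39.05% for isolated peaks and 41.6% for the others. The soft-masked share within 100 kb had medians of 37.86 and 29.97%, and the distance to the TSS 264174 and 165788 bp. The part of these differences in the CTCF shares was not tested. By GC content of non-promoter peaks, in classes chosen after seeing the data, 29.0% of 238 isolated peaks under 40% GC (23.6 to 35.1%) had the pattern, against 14.6% of the others in that class (13.8 to 15.5%). At 40 to 45% GC the shares were 22.1% (17.5 to 27.5%) and 12.1% (11.6 to 12.6%). From 45% GC upwards the intervals overlapped: 14.4% (10.2 to 19.9%) and 11.3% at 45 to 50%, 16.3% (10.1 to 25.2%) and 12.7% at 50 to 55%, and 11.9% (5.87 to 22.5%) and 10.6% above. The intervals were thus apart below 45% GC, and whether the difference itself varies with GC was not tested. Outside annotated repeats 22.9% of isolated non-promoter peaks (19.8 to 26.2%) and 11.7% of the others held the pattern.

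**Figure D4:**
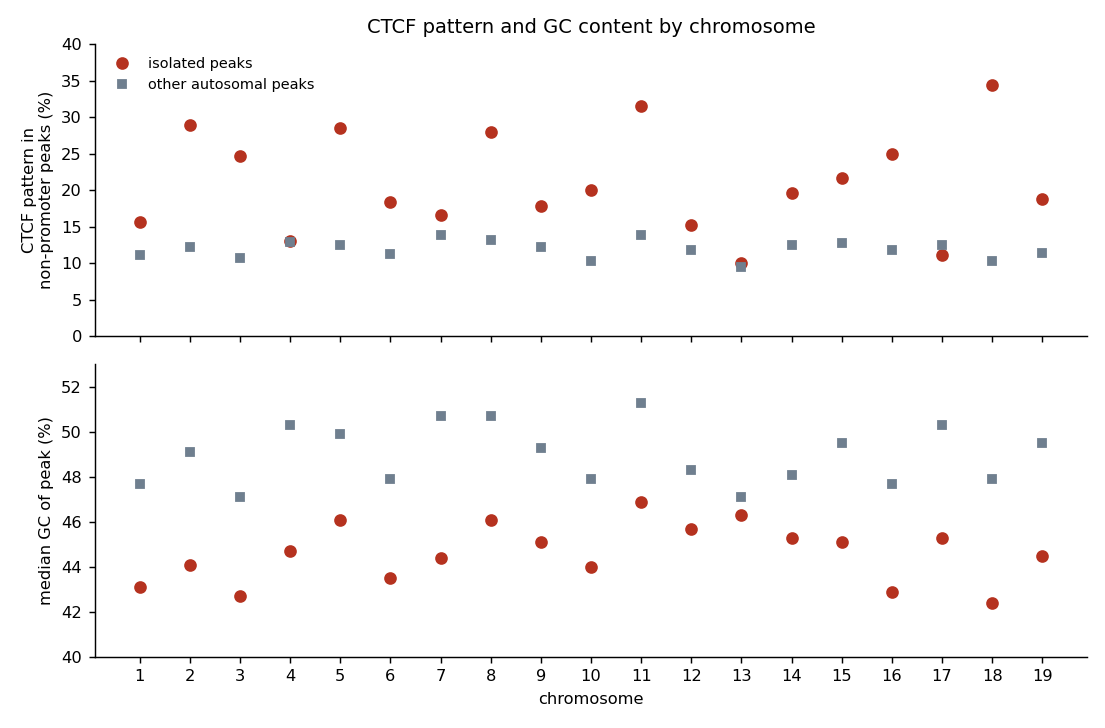
Share of non-promoter peaks with the CTCF pattern (top, %) and median GC content of peaks (bottom, %; axis from 40) on each autosome; red circles, isolated peaks, and grey squares, other autosomal peaks. The CTCF share is higher in isolated peaks on 18 of 19 chromosomes, from 10.0 to 34.4% against 9.53 to 13.9%, and the median GC is lower on 19 of 19.

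Other patterns stand for factors that act in these cells, and all were searched on both strands, where matches of different patterns may overlap. Each letter string is followed by its share of all autosomal peaks: GATA factors of red cells and megakaryocytes by AGATAA (24.0%), ETS factors such as PU.1 by CAGGAAG (29.2%), RUNX factors by AACCACA (16.1%) and C/EBP factors of myeloid cells by TTGCNCAA (5.32%). AP-1 and NF-E2 were searched by TGACTCA (10.8%), ZEB and Slug by CAGGTG (32.8%), the E proteins E2A and HEB of lymphocytes by CAGCTG (29.9%), TCF factors by CTTTGAT (6.75%) and REST, a repressor of neuronal genes, by TTCAGCACC (0.762%), which is the first part of a longer site. The lines below show the 2 most isolated peaks with each pattern, with the match in capitals on the plus strand and 20 bases on each side. A match on the minus strand appears there as the reverse complement of the string.
GATA at Lrfn5, chr12:61994537-61994582: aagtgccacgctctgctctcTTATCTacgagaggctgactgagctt
GATA at Gm20268, chr1:101902196-101902241: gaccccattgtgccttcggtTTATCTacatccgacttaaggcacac
ETS at Lrrc4c, chr2:95830833-95830879: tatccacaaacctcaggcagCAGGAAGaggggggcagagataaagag
ETS at Triml2, chr8:43163446-43163492: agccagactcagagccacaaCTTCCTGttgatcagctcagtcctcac
RUNX at Mmp16, chr4:17853173-17853219: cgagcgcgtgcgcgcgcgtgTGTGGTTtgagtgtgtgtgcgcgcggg
RUNX at 4930554G24Rik, chr11:14142604-14142650: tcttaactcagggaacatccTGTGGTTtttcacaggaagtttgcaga
C/EBP at Bche, chr3:73732052-73732099: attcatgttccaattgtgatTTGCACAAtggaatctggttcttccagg
C/EBP at Mir346, chr14:35326632-35326679: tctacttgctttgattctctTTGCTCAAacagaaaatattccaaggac
AP-1 and NF-E2 at Gm5524, chr1:28054156-28054202: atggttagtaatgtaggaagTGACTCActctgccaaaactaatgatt
AP-1 and NF-E2 at Adgrl3, chr5:79734999-79735045: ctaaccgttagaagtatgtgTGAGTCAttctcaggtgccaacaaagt
ZEB and Slug at Zik1, chr7:10495518-10495563: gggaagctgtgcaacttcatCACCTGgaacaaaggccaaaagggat
ZEB and Slug at Lrrc4c, chr2:97466292-97466337: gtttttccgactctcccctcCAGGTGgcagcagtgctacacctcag
E2A and HEB at Lrrc4c, chr2:97466681-97466726: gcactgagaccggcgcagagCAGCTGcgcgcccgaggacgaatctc
E2A and HEB at Elavl2, chr4:91376430-91376475: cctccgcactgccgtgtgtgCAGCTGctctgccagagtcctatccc
TCF at Ppp6c, chr2:40633360-40633406: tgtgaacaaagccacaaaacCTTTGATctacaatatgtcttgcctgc
TCF at D830032E09Rik, chr1:108259677-108259723: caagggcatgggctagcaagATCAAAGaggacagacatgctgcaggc
REST at Gm20172, chr1:25228763-25228811: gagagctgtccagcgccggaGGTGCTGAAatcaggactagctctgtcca
REST at Cntnap5c, chr17:57769185-57769233: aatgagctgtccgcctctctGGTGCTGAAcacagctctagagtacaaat
Several of these peaks hold more than 1 pattern, such as the Mmp16 promoter and the peak inside Lrrc4c.

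The shares of the other patterns differed by fewer points than that of CTCF. At least 1 of the 10 patterns was in 84.1% of isolated peaks (81.7 to 86.3%) and 85.0% of the others. The ETS pattern was in 23.8% (21.2 to 26.6%) against 29.3% (28.9 to 29.6%), with matches a median of 57 bp from the centre in isolated peaks and 64 bp in the others. The pattern of ZEB and Slug was in 25.5% (22.9 to 28.4%) against 32.9% (32.6 to 33.2%), and that of E2A and HEB in 25.5% (22.9 to 28.4%) against 29.9% (29.6 to 30.2%). These 3 patterns were thus less frequent in isolated peaks. Of the 3, only the pattern of ZEB and Slug kept intervals that did not overlap among far intergenic peaks, with 19.3% (15.8 to 23.4%) against 27.5% (26.3 to 28.8%). Its backwards string was lower in isolated peaks too, at 14.5% (12.4 to 16.8%) against 17.4% (17.1 to 17.7%) over all peaks, and its matches lay no closer to the centre of isolated peaks than those of that string, with medians of 103.5 and 91.5 bp.

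The RUNX pattern was in 15.4% (13.3 to 17.8%) against 16.2%, the C/EBP pattern in 6.15% (4.81 to 7.84%) against 5.31% and the TCF pattern in 7.28% (5.81 to 9.09%) against 6.74%, each within the interval of the isolated peaks. The pattern of AP-1 and NF-E2 was in 8.72% (7.11 to 10.7%) against 10.8% (10.6 to 11.1%), where the intervals just overlapped. RUNX matches lay a median of 61.5 bp from the centre and those of AP-1 and NF-E2 58 bp, closer than the matches of their backwards strings, at 128 and 105 bp.

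The GATA pattern was in 30.4% of isolated peaks (27.5 to 33.3%) against 23.9% (23.6 to 24.2%). Its backwards string moved with it, at 26.2% (23.5 to 29.0%) against 18.4% (18.2 to 18.7%). Among far intergenic peaks the intervals of the GATA pattern overlapped, with 34.5% (30.1 to 39.2%) against 31.2% (29.9 to 32.5%). There the backwards string was in 26.1% (22.1 to 30.5%) against 27.2% (26.0 to 28.5%). The median distance of GATA matches from the centre, 116 bp, was near that of the backwards string, 128.5 bp. Both strings are AT-rich and isolated peaks had less GC, and the part of base composition in the GATA share was not tested. The backwards strings of CTCF, C/EBP, E2A and HEB, and REST contain CG, which is scarce in the genome, so for these the position of matches is the fairer comparison.

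**Figure D5:**
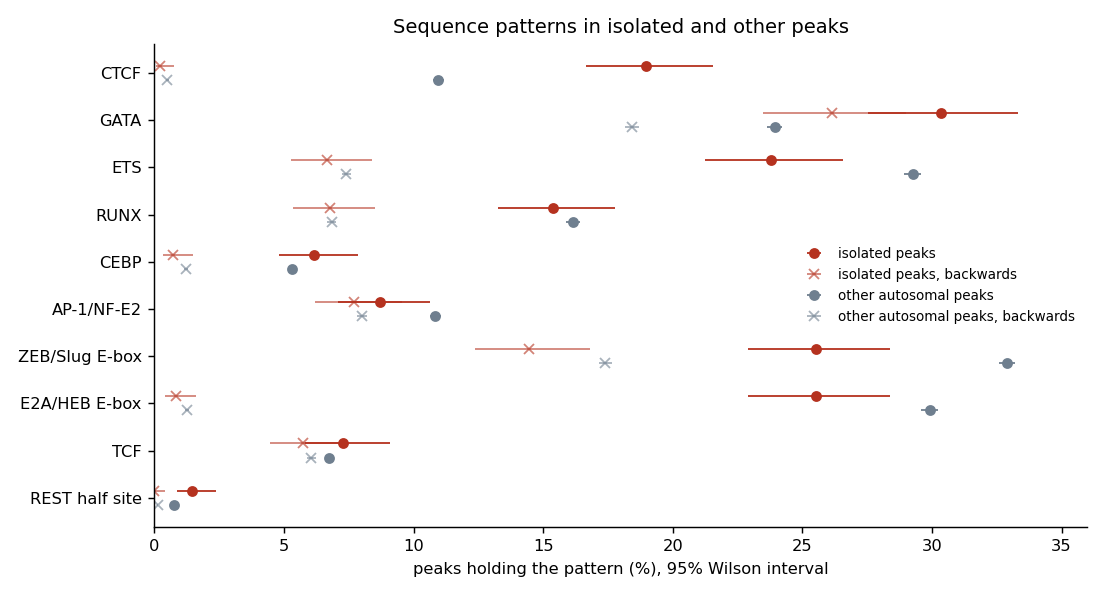
Share of peaks with each of the 10 sequence patterns (%), circles, and with the same letters written backwards, crosses, with 95% Wilson intervals; red, isolated peaks, and grey, other autosomal peaks. CTCF is at 19.0 against 11.0%, GATA is at 30.4 against 23.9% with its backwards string at 26.2 against 18.4%, and ETS and the ZEB and Slug pattern are lower in isolated peaks.

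Repeats were annotated at 189 isolated peaks (19.4%, 17.0 to 22.0%) and at 15.0% of the others (14.8 to 15.2%). Among far intergenic peaks the shares were 23.9% (20.1 to 28.2%) and 20.8% (19.7 to 21.9%), and the intervals overlapped. LTR elements made up 93 of the 189, LINEs 47 and SINEs 27. The LTR family ERVK, which includes the IAPs, was at 45 isolated peaks (4.62%, 3.47 to 6.12%) against 1.30% of the others (1.23 to 1.38%). It was more frequent in isolated peaks on 16 of 19 autosomes, and chromosomes 13, 16 and 18 had 0 isolated peaks with ERVK. L1, a LINE family, was at 43 (4.41%, 3.29 to 5.89%) against 2.36% (2.26 to 2.47%). Its most frequent names among isolated peaks were Lx9, at 6, and Lx8, at 5. ERVL-MaLR, an older LTR family, was at 35 (3.59%, 2.59 to 4.95%) against 4.03%, and B2, a SINE family, at 20 (2.05%, 1.33 to 3.15%) against 2.09%, so these last 2 families did not differ beyond counting error. The surroundings of isolated peaks had more soft-masked sequence, as given above, and its part in these shares was not tested.

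The families differed in the CTCF pattern. It was in 16 of the 20 isolated B2 peaks (80.0%), and in 59.0% of the other B2 peaks, but in 1 isolated peak each of ERVK, L1 and ERVL-MaLR. Of the 20 B2 peaks, 9 were annotated to B3 and 8 to B3A. B2 peaks were 8.65% of the isolated peaks with the CTCF pattern (5.39 to 13.6%) and 11.3% of the others with it.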

How the data were processed

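The authors aligned the ATAC-seq reads of 12 samples to mm10 with the ENCODE ATAC-seq pipeline, without multimapping reads, took the reproducible peaks of each cell type, concatenated them, kept non-overlapping peaks with chromVAR and annotated them with HOMER (version 4.10.2 in the submitters' processing notes). The deposited positions and TSS distances are in bp. The deposited peak score was 0 in every peak and ranks nothing. Which replicates gave a peak is not known from the list, so depth per sample is unknown.

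Isolated peaks were defined by centre distances over 100 kb on both sides. The first and last peak of each autosome lack a neighbour and were not members. Sequence, soft-masking, genes and TSSs came from RefSeq GRCm38, whose chromosome lengths hold all peaks, and 83.9% of members had a HOMER distance within 2 bp of the RefSeq one. Members, gene lists and patterns were chosen with earlier results of these data known. Named items are those with the largest distance to another peak in each class (10 peaks, 12 promoters, 6 per gene list, 6 with CTCF), the 10 genes with the most members and the 5 longest runs. Sequences on chromosome 18 were passed over for the next. Some items under this rule are not reported here. Code was tested on simulated data. Python 3.11.15, numpy and pandas were used.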

Additional observations from a re-analysis of the deposited data

How the results depend on the processing

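Isolated peaks numbered 2686 with a limit of 50 kb and 344 with 200 kb. They numbered 984 with chromosome-end peaks kept, 996 with peaks within 1 kb joined to 1 site and 966 without those that have an assembly gap within 100 kb. With the 50 kb limit the intergenic share was 52.9% and the CTCF share 15.3%, and with RefSeq gene bodies the intergenic share was 56.1% (34.9% of the other peaks). A promoter limit of 100 bp gave a promoter share of 6.26% (9.51% of the others). The stricter CTCF pattern was in 4.72% (2.61% of the others) and the looser one in 25.7% (19.1% of the others). At least 50% of the peak was soft-masked in 5.13% of isolated peaks (3.50% of the others). The other alternatives gave shares within the 95% Wilson interval of the main value. No paired analysis was possible because no result comes from a test and the list has no values per sample. The list has no depth, so how strongly a peak was supported, and whether weaker sites between isolated peaks went uncalled, was not analysed here.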

Other observations

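Of 67 autosomal peaks annotated to a repeat whose name begins with IAP, 15 were isolated (22.4%, 95% Wilson interval 14.1 to 33.7%), against 4.07% of all ERVK peaks and 1.18% of all autosomal peaks. They were 1.54% of isolated peaks and 0.0639% of the others. By name, 6 of 33 peaks on IAPEY4_LTR, 4 of 9 on IAPLTR3-int and 3 of 10 on IAPLTR2_Mm were isolated. IAPs are endogenous retroviruses with many closely similar copies in the mouse genome. Multimapping reads had been left out by the authors, and the part of this step in these shares was not tested. These groups were chosen after their values were seen.

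The REST pattern, which covers the first part of the site of this factor, was in 14 isolated peaks (1.44%, 0.857 to 2.40%) and in 0.754% of the others (0.697 to 0.816%). Of the 14, 6 were promoter peaks (4.96% of isolated promoters, 2.29 to 10.4%, against 0.833% of other promoter peaks, 0.689 to 1.01%). These were the promoters of Cntnap5c and Cntnap5b, adhesion proteins of the neurexin superfamily, of Slc35f4, of Nlgn1, a synaptic adhesion protein, of Scg2, a neuroendocrine granule protein, and of Tnr, a matrix protein of the brain. The second part, GGACAG, followed 2 bp on in 4 of the 14 isolated peaks, in 1 of the 6 promoters (Slc35f4) and in 54 of the 614 other peaks with the pattern. Only this spacing was searched, so peaks without it may hold the second part at another. The REST sequences printed above, at Gm20172 and Cntnap5c, have its reverse complement, ctgtcc, at a wider spacing. These promoters were named after their values were seen, and binding of REST was not measured.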
